A study of Drosophila melanogaster with 3 samples.

Results

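The peaks described here are binding sites of a tagged chromatin protein that lie between genes and away from any promoter. They were chosen by position alone from the authors' reproducible set of 8952 peaks: the summit had to be over 500 bp from every annotated transcription start site (TSS) and inside no annotated gene. Transposable elements were not counted as genes. In all, 780 peaks met both conditions, 8.71% of the set (95% exact binomial interval 8.14 to 9.32). They are called intergenic peaks below. The other peaks had their summit within 500 bp of a TSS (5716, called promoter peaks), in an intron (2286) or in an exon (170).

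The protein was CG12659, tagged with GFP at its C terminus in a transgenic fly line that expresses the fusion stably. Chromatin of intact *Drosophila melanogaster* embryos, both sexes pooled and 0 to 24 hours old, was sheared by sonication to 200 to 800 bp and pulled down with an antibody to GFP. One label field gives CG12659 itself as the antibody, while the description names anti-GFP, which was followed. The design had 1 group of 3 biological replicates and no second genotype or treatment, so no comparison between groups was possible. Whether the replicates were separate collections of embryos is not stated beyond that word. Embryos of all stages and tissues were mixed, so a peak can come from few cells or from many, which cannot be told apart here. Read depth was unknown, since the files list regions and not reads.

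CG12659 is the fly counterpart of INO80C, a small subunit of the INO80 complex. That complex slides nucleosomes and exchanges histones, and it is known at promoters and at distal regulatory elements. In flies, sequence between genes holds enhancers, insulators and Polycomb response elements, which act on a gene from a distance, and many of them are short stretches free of nucleosomes.

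Summit sequences of 6 intergenic peaks are shown first, because the results on neighbours, clusters and words in the sequence return to them. Each is the release 6 (dm6) reference sequence of the plus strand, 101 bp centred on the summit. Capitals mark letters of the words searched, on either strand: the TATA box TATAAA, the Caudal-type word TTTATNG, the core promoter word Motif 1 (GGTCACACT), the DNA replication-related element or DRE (TATCGATA), the letters AGNTGGCG, which hold the core of the fly CTCF site, and CACTGAG, a word with no name. The sequences are the highest peak near chinmo (chr2L:1638767-1638867), the highest peak of the stretch between NijA and CG43245 (chr3L:10752700-10752800), the peak between jp and lncRNA:CR44149 (chr2L:9567459-9567559), that between slp1 and slp2 (chr2L:3832467-3832567), that between myo and ey (chr4:696885-696985) and that between Cad89D and Gr89a (chr3R:16497553-16497653).
chinmo region: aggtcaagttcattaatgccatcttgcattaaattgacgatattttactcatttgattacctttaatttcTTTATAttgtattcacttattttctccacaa
NijA to CG43245: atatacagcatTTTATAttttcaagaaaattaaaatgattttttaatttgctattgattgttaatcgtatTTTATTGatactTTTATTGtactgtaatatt
jp to CR44149: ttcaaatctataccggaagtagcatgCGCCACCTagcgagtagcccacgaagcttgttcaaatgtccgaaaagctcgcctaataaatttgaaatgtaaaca
slp1 to slp2: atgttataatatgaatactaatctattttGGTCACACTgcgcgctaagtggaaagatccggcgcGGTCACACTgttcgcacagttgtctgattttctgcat
myo to ey: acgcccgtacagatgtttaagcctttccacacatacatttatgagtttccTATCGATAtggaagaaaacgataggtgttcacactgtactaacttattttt
Cad89D to Gr89a: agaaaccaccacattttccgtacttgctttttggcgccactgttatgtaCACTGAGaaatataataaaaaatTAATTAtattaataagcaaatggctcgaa
In the last of them the capitals TAATTA mark the homeodomain core. The slp1 to slp2 sequence holds Motif 1 2 times in the same direction. The first 2 sequences carry TATAAA on the minus strand, which reads TTTATA here, and the NijA sequence also carries the Caudal-type word 2 times.

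The highest intergenic peaks included a group beside the chinmo gene on arm 2L, which codes for a BTB zinc finger factor of neuronal temporal identity. The signal value used throughout is the authors' own score per region, which is comparable within a list and not between lists. The highest of the group (chr2L:1638509-1639057) had signal values of 1182, 1004 and 846 in replicates 1, 2 and 3, and 3020.3 in the list made from the 3 replicates together (the pooled list). Its neighbour at chr2L:1643182-1643639 had 906, 803 and 562. A further one at chr2L:1632612-1633038 had 668, 629.7 and 428. All 6 intergenic peaks of this stretch were found among the top regions of every replicate, the top regions being the 8952 of highest signal in its list. The summits of these 3 lay 12441, 7793 and 18415 bp from chinmo, the next protein-coding gene to the right. The stretch itself was 20910 bp long and bounded by lncRNA:CR44603 and lncRNA:CR45695, neither of which had a promoter peak.

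The highest peaks lay in gaps of very different length. The peak between jp, which codes for junctophilin, and lncRNA:CR44149 (chr2L:9567314-9567736) had signal values of 974, 801 and 436 in a gap of 1404 bp. The peak between CG17896 and CG17778 (chrX:493796-494282) had 718, 679 and 469.8 in a gap of 1118 bp. That between C15, a homeobox gene, and sp3 (chr3R:21520182-21520554) had 782, 548 and 525 and lay 559 bp upstream of sp3 in a gap of 8113 bp. Each of these 3 would fall outside the rule with a TSS distance of 1000 bp. Beside tara, a gene of the SERTAD family, 2 of the 15 highest peaks lay 3163 and 1132 bp upstream of the gene. The first (chr3R:16222001-16222704, in a gap of 8437 bp) had signal values of 841, 601 and 489.8. The second (chr3R:16224299-16224709) had 795, 584 and 330.1 in a gap of 1796 bp. The gap of 8437 bp held 4 intergenic peaks in all. Among them, a peak with its summit 3496 bp from tara shares the coordinates and replicate values of the first. A peak 3334 bp upstream of foxo, the forkhead factor of insulin signalling, had 751, 571 and 479.9 (chr3R:14053361-14053799) in a gap of 12338 bp. In each of the 15 highest peaks replicate 1 had the highest value and replicate 3 the lowest, but the 3 lists have different scales, so this order says nothing about the peaks.

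**Figure D1:**
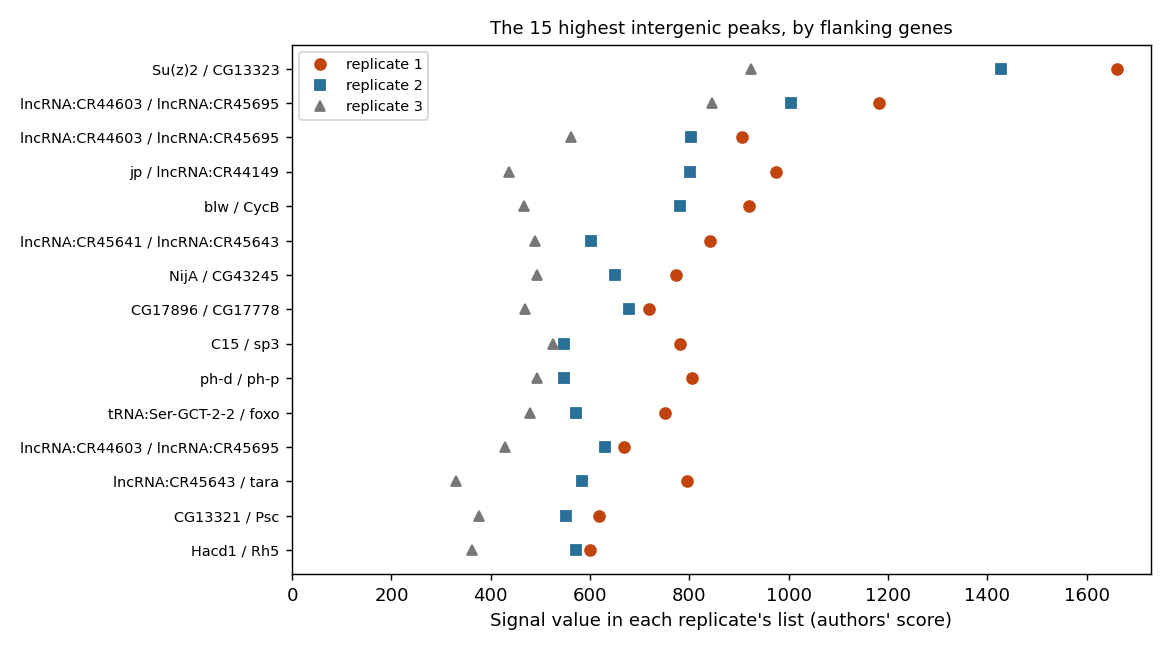
Signal values (x axis, the authors' score) of the 15 intergenic peaks of highest pooled signal among those found in the top regions of all 3 replicates, 1 row per peak, labelled by the genes to its left and right. Points are single replicates, and the top row runs from 924 in replicate 3 to 1662 in replicate 1.

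The highest intergenic peak of all lay on arm 2R in the Polycomb region that holds Psc and Su(z)2, paralogous genes whose products act in Polycomb repressive complex 1. It was at chr2R:13035104-13035578, with signal values of 1662, 1427 and 924 and a pooled signal of 3997, rank 10 of all 8952 peaks. It lay 27430 bp beyond the 3′ end of Su(z)2 and 9354 bp beyond that of CG13323, in a gap of 36783 bp between convergent genes. On the far side of the locus, the peak 6566 bp from Psc (chr2R:12959100-12959653) had 618, 551 and 377. A second peak there, 7727 bp from Psc, had 559, 444 and 356. The gap beside Su(z)2 held 2 weaker peaks, 386 and 7475 bp from the gene, with pooled signals of 329 and 279.9. On X, a peak between the paralogs ph-d and ph-p, which code for the Polyhomeotic subunits of the same complex, had 804, 547 and 494 (chrX:2123879-2124422). These 4 genes were the only ones of 22 Polycomb and trithorax group genes on the list that flanked an intergenic peak, as the nearest gene on one side. Over all 18164 genes, 5.71% did so, and of the 9291 genes that border any sequence the rule allows, 11.2% did. In the list 14 genes border such sequence, so the 4 are 28.6% of those. The peaks of the 4 genes were 6 in number, and 5 of them were found in the top regions of all 3 replicates.

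Another high peak of arm 2R lay between the 3′ ends of blw, which codes for the alpha subunit of ATP synthase, and CycB, the Cyclin B gene. It had signal values of 919.8, 782 and 466 (chr2R:22802758-22803166) and was 784 bp from blw and 557 bp from CycB. Both genes also had a promoter peak.

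Genes of embryonic patterning had intergenic peaks beside them in several lists. Each list is given with its share of the genes bordering allowed sequence (11.2% over all genes). The shares are not independent, since some genes (kni, wg, vn and Ser) are shared between lists. A peak between a pair of listed genes, such as slp1 and slp2, also counts for both. Of the gaps of up to 2000 bp, 2.84% held a peak, against 25.2% of those over 20000 and up to 50000 bp. Beyond that length the share was lower. Gap length was not matched between any gene list and all genes, so its part in the shares was not tested. Of 30 anterior-posterior segmentation genes, 9 flanked an intergenic peak, 31.0% of 29 bordering: Dr, ems, hry, kni, oc, ptc, slp1, slp2 and wg. The highest of these lay between slp1 and slp2, the forkhead genes of the sloppy paired locus, with 462, 361 and 247, and was 4323 bp upstream of slp2. The peak upstream of ptc, which codes for the Hedgehog receptor, had 265, 210.3 and 141 at a distance of 5280 bp. Both were among the top regions of every replicate. Of 24 signalling ligand genes, 7 flanked a peak, 35% of 20 bordering: Ser, Wnt4, pyr, ths, upd1, vn and wg. These genes lay beside 6 peaks in all. The divergent gap between Wnt4 and wg, both Wnt ligands, held a peak 11035 bp upstream of wg with 152, 107 and 75.7. The peak 11125 bp from upd1, a ligand of the JAK/STAT pathway, had 188, 161 and 98.6.

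For trachea and ectoderm appendages the count was 5 of 15, 38.5% of 13 bordering (ct, disco-r, kni, salm and vvl). For gut, fat body and hemocyte it was 4 of 12, 44.4% of 9 bordering (bin, fkh, pnt and srp). Dorsal-ventral patterning had 4 of 21, 28.6% of 14 bordering (Doc1, Doc2, sog and vn). Neuroblast and proneural genes had 3 of 22, 18.8% of 16 bordering (D, SoxN and nerfin-1). With lists this short a single gene moves the share by several points. The peak 1294 bp upstream of bin, the FoxF gene of visceral mesoderm, was the highest of these with 507, 456 and 317 (chr3L:6989057-6989578). A peak 1189 bp beyond the 3′ end of D, a SoxB gene, had 416, 325 and 147. The peak near SoxN had 245, 175 and 119.5, and that upstream of the T-box gene Doc2 had 230.4, 199 and 137. The POU-factor gene vvl had 4 intergenic peaks in a gap of 70507 bp on its 3′ side. The 2 highest, 29060 and 58681 bp from vvl, had 239, 187 and 159 and 232, 211 and 143. Of 17 listed genes of the Notch pathway and the Enhancer of split complex, all bordering, 3 flanked a peak: E(spl)malpha-BFM, Ser and fng. The peak 1825 bp upstream of E(spl)malpha-BFM, the 1 of them in the complex, had 293, 262 and 176. These peaks ranked from 20 to 136 among the 780 by pooled signal.

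The remaining lists were read against the same 2 shares, 5.71% of all genes and 11.2% of the bordering ones. Of 12 Hox complex genes, all bordering, only bcd, the anterior determinant that lies in the complex, flanked a peak as the nearest gene. That peak was weak at 84.1, 91.3 and 48.5. With non-coding genes passed over, a stronger peak (chr3R:16798767-16799036) had abd-A as its next protein-coding gene to the right, 8315 bp away. Its signal values were 345, 174 and 162, and lncRNA:CR45750 was its nearest gene on that side. Of 92 cytosolic ribosomal protein genes 5 flanked a peak, 10.2% of the 49 that border allowed sequence and so near the share of all bordering genes. Of 73 mitochondrial ribosomal protein genes 1 did (19 border). No snoRNA gene of 269 and no insulator or architectural protein gene of 14 did, but only 6 and 4 of them border allowed sequence. For cuticle protein genes it was 9 of 125 (8.33% of 108 bordering) and for chemoreceptor genes 10 of 185 (8.77% of 114). The peak between Cad89D and Gr89a, a gustatory receptor gene, whose sequence is among those above, had 278, 191 and 163. Of 290 tRNA genes 14 flanked a peak, 4.83% of the list but 16.7% of the 84 that border allowed sequence, so the reading depends on which share is used. Muscle genes had 4 of 23 (19.0% of 21 bordering) and nuclear receptors 3 of 21 (16.7% of 18). Long non-coding RNA genes lay beside 367 of the 780 peaks, and 246 of 2447 such genes flanked one, 17.8% of the 1383 that border allowed sequence. Of 260 microRNA hairpin genes 3 did (25 border) and of 32 snRNA genes 1 (7 border).

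Intergenic peaks often came in groups. They fell into 555 of the 6528 gaps between genes that hold allowed sequence. A single peak was found in 423 gaps, while 132 gaps held at least 2 and together 357 of the peaks. At least 5 peaks were found in 9 gaps, with 54 peaks in all. The most were 9, between NijA, the Ninjurin A gene, and CG43245, divergent genes 75047 bp apart. Their pooled signals ran from 198 to 1914, and 7 of the 9 were found in the top regions of all 3 replicates. The highest (chr3L:10752512-10753015) had 773, 649.9 and 492 and lay 19175 bp upstream of CG43245. The next (chr3L:10739955-10740163) had 374, 393 and 233. Neither NijA nor CG43245 had a promoter peak.

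Another group lay around Rh5, the gene of a rhodopsin. Between Hacd1 and Rh5 and on to lncRNA:CR44588, 8 intergenic peaks lay within 9314 bp. All were among the top regions of every replicate, but not all are separate: 2 share the coordinates chr2L:12011064-12011509 with different summits, and overlapping peaks take the signal of the same replicate region. The highest (chr2L:12006545-12007026) had 599, 573 and 362 and was 1382 bp upstream of Rh5. A gap of 32964 bp between tRNA:Ile-TAT-1-2 and CG13898 held 8 peaks, the highest with 534, 437 and 287. In the whole set, 8 intergenic peaks share coordinates with another, so that 776 coordinate pairs are distinct.

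The median intergenic peak lay 2381 bp from the nearest TSS, with quartiles at 1171 and 4882 bp. Of the 780, 613 were over 1000 bp away, 440 over 2000, 188 over 5000 and 74 over 10000. The farthest was at 39580 bp, in the gap of 94375 bp between CG41128 and CG41099, with 111, 55.4 and 99.8, and it was not among the top regions of replicate 2. Of the 5 farthest peaks, 3 lay between NijA and CG43245 and 1 beside vvl. The summit was upstream of the nearest TSS in 503 peaks and downstream in 277.

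Density was set against the 36.5 Mb of sequence that the rule allows, 27.2% of the 6 chromosome arms. It was 59.1 peaks per Mb at 501 to 1000 bp from a TSS, 37.9 at 1001 to 2000, 28.1 at 2001 to 5000, 15.9 at 5001 to 10000, 11.2 at 10001 to 20000 and 2.27 beyond. In the replicates' own top regions it was 62.7 ± 10.4 (SD, n = 3) per Mb in the nearest bin and 2.06 ± 0.405 in the farthest, and the 3 replicates did not overlap between those bins. Median pooled signal changed less, from 311 in the nearest bin to 266 in the farthest. By chromosome arm, density was 27.1 per Mb on 2L, 25.7 on 3L, 18.6 on 3R, 17.9 on X and 15.4 on 2R. On the small chromosome 4 it was 48.9, from 12 peaks. Gaps over 50000 bp made up 9.48 Mb of the allowed sequence and held 27 peaks. Sequence in which reads cannot be placed was not taken out, so its part in these densities was not tested.

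**Figure D2:**
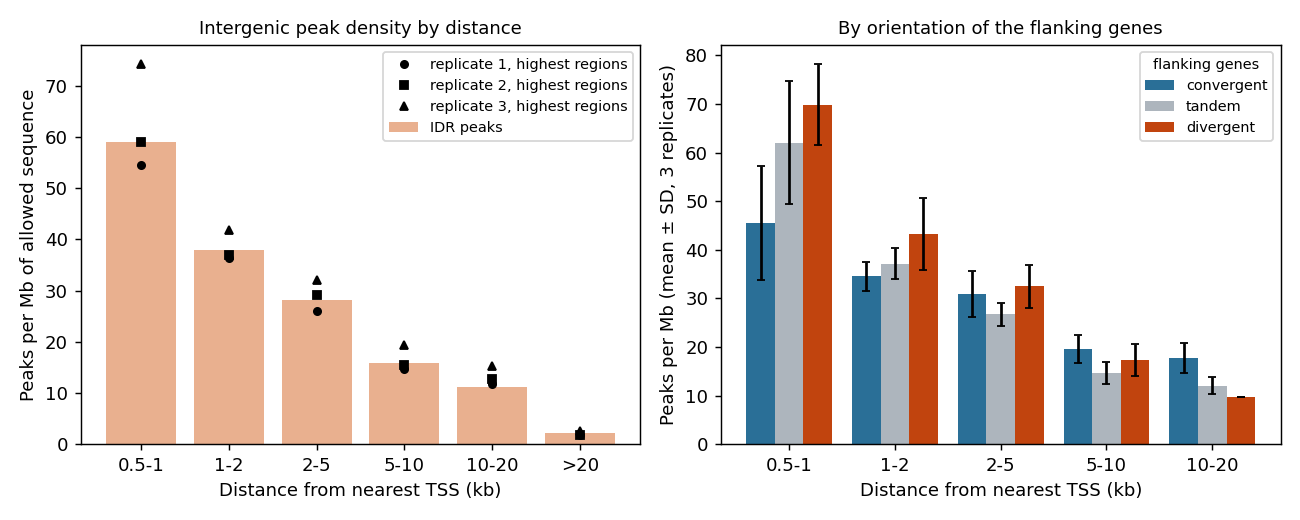
Left, intergenic peaks per Mb of allowed sequence (y axis) by distance from the nearest TSS (x axis, kb); bars are the 780 peaks and points the top regions of single replicates. Right, the same by orientation of the flanking genes, as mean and SD of 3 replicates. Density falls from 59.1 to 2.27 per Mb, and from 2 to 5 kb the bars stand at 32.5 (divergent), 26.7 (tandem) and 31.0 (convergent).

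The distance to a gene's 3′ end showed a like decline. The median was 2830 bp, 389 peaks (49.9%) were nearer to a 3′ end than to a TSS, and 124 lay within 500 bp of one. Density was 54.5 per Mb within 500 bp of a 3′ end (55.7 ± 4.18 in the replicates, SD, n = 3), 38.5 at 501 to 1000 bp and 7.19 beyond 10000 bp (7.91 ± 1.12). An example of a peak near a 3′ end was that between Act87E, an actin gene, and yrt, 168 and 324 bp from the 2 ends, with 117, 137 and 89.5. A place near a 3′ end is often near another gene's start, and the 2 distances were not separated.

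Peaks were found between genes of every orientation: 381 between tandem genes, 223 between divergent genes and 175 between convergent genes, with 1 beyond the last gene of an arm. Per Mb of allowed sequence these were 20.7, 30.2 and 18.9. In the single replicates the divergent density was 1.58, 1.69 and 1.496 times the convergent one (mean 1.59 ± 0.0977, SD, n = 3). The two-sided exact sign-flip permutation test over replicates gave p = 0.25, the smallest that 3 replicates allow. Of the allowed sequence in divergent gaps, 0.944 of 7.39 Mb lay within 1000 bp of a TSS, against 0.322 of 9.28 Mb in convergent gaps. The ratio differed between distances. Beyond 500 and up to 1000 bp, densities of the intergenic peaks were 63.5 divergent and 52.8 convergent, and the replicate ratio was 1.57. From 1001 to 2000 bp they were 44.4 and 31.8, with a replicate ratio of 1.27 (exact sign-flip p = 0.5). In that bin replicate 2 went the other way, with 35.8 divergent and 37.7 convergent. From 2001 to 5000 bp they were 30.8 and 29.4, with a replicate ratio of 1.06 (exact p = 1). Farther out the order was not the same in each bin. It was 16.7 divergent and 18.9 convergent at 5001 to 10000 bp and 8.57 and 14.5 at 10001 to 20000 bp. Beyond that it was 11.9 and 2.57, from 7 and 6 peaks. Several of those 7 lay in the same gap, between NijA and CG43245. Without gaps over 50000 bp, the overall replicate ratio was 1.35.

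Shorter gaps held more peaks per Mb. Gaps of up to 2000 bp had 70.9 per Mb and gaps over 50000 bp had 2.85. Of the 78 gaps over 50000 bp, 13 held a peak, 16.7%, against 2.84% of the 3551 shortest ones, which have little allowed sequence each.

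The share of neighbouring genes with a promoter peak was close to that of all protein-coding genes that border allowed sequence. Of 770 protein-coding genes that flank an intergenic peak, 265 had a promoter peak, 34.4% (95% exact interval 31.1 to 37.9). Over all 13945 protein-coding genes it was 42.3%, and over the 7615 that border allowed sequence 36.7%. The median distance to the nearest promoter peak was 11345 bp. By orientation of the gap the direction differed. Beside tandem gaps that held an intergenic peak, 34.3% of protein-coding neighbours had a promoter peak, against 24.7% beside tandem gaps without one. For divergent gaps it was 32.3% against 22.5%, and for convergent gaps 36.9% against 44.0%. The gaps differed in length: convergent gaps with a peak had a median of 7842 bp and those without one 275 bp. The part of gap length in these shares was not tested.

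Nearly all intergenic peaks overlapped a region in each replicate's list. These lists run to 30000, 30000 and 28466 regions in replicates 1, 2 and 3, so a place in one is a weak requirement. All 3 region lists held 757 of the 780 (97.1%, against 97% of all 8952 peaks). Since the reproducible set was kept for agreement between these same replicates, this share was partly fixed by the choice. Among the top regions of all 3 replicates were 556, 71.3% (68.0 to 74.4), against 78.6% of all peaks, 82.4% of promoter peaks and 72.4% of intron peaks. Split by signal into 3 parts of 260, the counts were 255, 233 and 68. All peaks in the same signal ranges had shares of 98.4%, 83.1% and 33.2%, beside 98.1%, 89.6% and 26.2% for the intergenic ones. Close peaks can match the same replicate region, so the counts are not all of separate regions. For example, chr2L:1649151-1649936 holds 2 summits with pooled signals of 1209 and 666 and the same replicate values. Across the intergenic peaks found in both lists, signal had Spearman's rho of 0.813 for replicates 1 and 2 (764 peaks), 0.761 for 1 and 3 (763) and 0.781 for 2 and 3 (763). These describe regions that share a library, which are not replicates. After each replicate was scaled by its median over all peaks, the median coefficient of variation of a peak over the 3 replicates was 16.3%, beside 16.9% at promoters and 15.9% in introns.

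**Figure D3:**
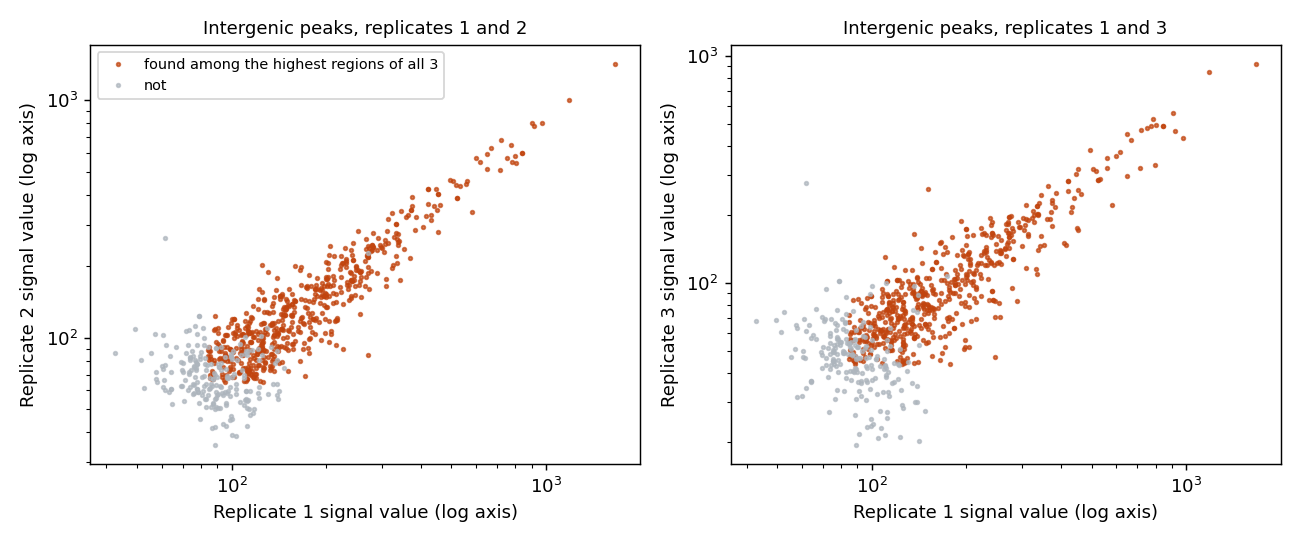
Signal value of each intergenic peak in replicate 1 (x axis, log scale) against replicate 2 (left) and replicate 3 (right; y axes, log scale), in the authors' score. Coloured points are the 556 peaks that all 3 replicates had among their top regions, and they extend to the top right, while grey points gather at low signal.

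The intergenic peaks were weaker than promoter peaks and close to intron peaks. Their pooled signal had a median of 289.6 with quartiles of 226 and 447 and a range of 185 to 3997. The median signal in replicates 1, 2 and 3 was 126, 102 and 71.3, against 195, 136 and 107 for promoter peaks. The ratio was 0.649, 0.750 and 0.665, with a mean of 0.688 ± 0.0546 (SD, n = 3), lower in 3 of 3 replicates (exact sign-flip permutation test, two-sided, p = 0.25, the smallest possible). Intron peaks had medians of 138, 109 and 75.5. The ratio of intergenic to intron signal was 0.919, 0.941 and 0.944, with a mean of 0.935 ± 0.0141 (SD, n = 3), again lower in 3 of 3 (exact p = 0.25).

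With falling signal the intergenic share rose. It was 6.10% among the 3000 pooled regions of highest signal, 8.07% in the next 3000 and 12.03% in the 3000 after those, and 21.3% in the 3000 lowest of 30000. The intron share went from 19.0% to 47.6%. The pooled list is labelled as holding both peaks and background, so its lowest regions may be background. For scale, allowed sequence made up 27.2% of the chromosome arms. In the 8952 top regions of each replicate, 8.18%, 8.78% and 10.3% were intergenic (mean 9.09% ± 1.11, SD, n = 3).

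**Figure D4:**
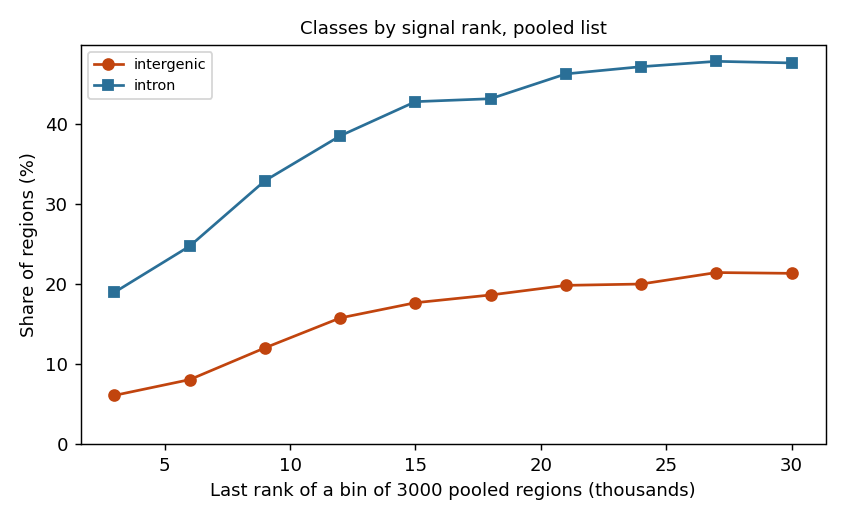
Share of regions that are intergenic or intronic (y axis, %) in successive bins of 3000 regions of the pooled list (x axis, last rank of the bin, highest signal first). The intergenic share climbs from 6.10% to 21.3% and the intron share from 19.0% to 47.6%.

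The summits were rich in A and T. Within 50 bp of the summit G and C made up 33.4% of the bases of intergenic peaks, against 43.5% within 50 bp of points 300 bp away. For the intergenic regions of the single replicates it was 33.7% ± 0.287 against 43.4% ± 0.375 (SD, n = 3), lower at the summit in 3 of 3 (exact sign-flip permutation p = 0.25). Intron peaks had 32.9% and 43.3%, and promoter peaks had a smaller dip, 37.6% and 42.8%. The points 300 bp away were richer in G and C than sequence farther out. In windows of 25 bp each side, intergenic peaks had 39.8% at 750 bp to the left and 40.3% at 750 bp to the right. At 1000 bp it was 41.9% and 41.0%. The part of base composition, at the summits or at the points 300 bp away, in the shares of words given next was not tested. The 6-letter word AAATAT was found at 35.1% of intergenic summits and 15.9% of the points 300 bp away. For intron peaks it was 34.69% and 14.96%.

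Of 23 words searched on both strands, 13 were found at more intergenic summits than points 300 bp away. Shares over all 8952 peaks are given beside them. The TATA box letters TATAAA, which are all A and T, were at 173 summits, 22.2% (95% exact interval 19.3 to 25.3), against 11.4% away and 19.9% over all peaks. The homeodomain core TAATTA was at 89, 11.4% against 6.28% away and 8.67% over all peaks. Intron summits held TATAAA at 24.98% against 9.38% away, and TAATTA at 10.28% against 5.75% away. The rise of both words at the summit was thus not particular to intergenic peaks. Lower at the summit were the CA repeat CACACACA, 0.513% against 5.06% (all peaks 1.34%), the GA repeat GAGAGAG, which the GAGA factor binds, 0.641% against 2.44% (1.16%), and GCCAT, the core of the Pho site of Polycomb response elements, 15.1% against 21.2% (15%). Intron summits had 1.40% against 5.07%, 1.27% against 3.96% and 13.0% against 18.9% for the same words in that order. The fall was thus not particular to intergenic peaks either.

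Words of housekeeping promoters were less frequent at intergenic than at promoter summits, but more frequent at the summit than 300 bp away. The DRE was at 7 intergenic summits, 0.897% (0.362 to 1.84), against 0.128% away, with 3.59% over all peaks and 5.39% of promoter peaks. The shown sequence between myo and ey on chromosome 4 is the strongest of the 7, with a pooled signal of 602. Motif 1, which the factor M1BP binds, was at 2 summits, 0.256%, against 0% away, with 2.51% over all peaks and 3.83% of promoter peaks. One of these is the shown slp1 to slp2 sequence, and the other lay between side-VI and lncRNA:CR44940. The letters CGATA, a short core of the BEAF-32 site that also lies inside the DRE, were at 11.9% of intergenic summits against 9.17% away, and at 21.5% of all and 27.6% of promoter summits.

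The other words are given with their share at the summit, 300 bp away and, in brackets, over all peaks. Among bHLH E-boxes, CATATG was at 39 intergenic summits, 5% against 3.40% away (all peaks 3.51%), CAGCTG at 2.56% against 3.14% (5.16%) and CACGTG at 0.513% against 1.22% (0.815%). The Zelda word CAGGTA, bound by the pioneer factor of zygotic genome activation, was at 2.56% against 1.99% (1.99%). The Su(Hw) letters TGCATA were at 9.87% against 7.24% (7.27%) and the Caudal-type letters TTTATNG at 13.6% against 10.7% (11.4%). The core promoter words GGTATTT (Ohler motif 6) and TCAGTT (part of the initiator) were at 2.95% against 1.60% (4.59%) and 6.92% against 6.47% (6.75%). The AP-1 word TGANTCA was at 2.31% against 1.67% (2.32%), the GATA word AGATAAG at 1.67% against 1.41% (1.23%) and the Runt word ACCNCAA at 3.33% against 5.32% (3.43%). The longer Pho letters ATGGCG were at 4.62% in both places (all peaks 3.6%). The CRE TGACGTCA and the Grainyhead word AACCGGTT were at 0 intergenic summits, with upper exact limits of 0.472%, beside 0.134% and 0.0894% of all peaks.

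For CTCF, an insulator protein, the outcome depended on the letters. The letters AGNGGGC were less frequent at the summit, 2.82% against 5.19% away (all peaks 2.50%). The letters AGNTGGCG were more frequent, at 27 summits, 3.46% (2.29 to 4.997) against 1.54%, with 2.01% over all peaks. Intron peaks had 1.44% against 1.33% away, and promoter peaks 1.94% against 1.34%. With A in place of N, AGNTGGCG holds the longer Pho letters ATGGCG, so the shares of these words are not separate. The letters AGNTGGCG were chosen after the summit sequences had been read and carry no test. In the shown jp sequence they read CGCCACCT on the plus strand. CACTGAG, chosen in the same way, was also at 27 summits, 3.46% against 0.513% away, with 1.55% over all peaks, 2.23% of intron peaks and 0.980% of promoter peaks. In the single replicates it was at 2.73% ± 0.189 of intergenic summits (SD, n = 3) against 0.697% ± 0.284 away. These values are no independent support for a word chosen from the summits, since the replicates largely share their places in the genome. Of the 780 peaks, 86.7%, 86.5% and 88.5% were among the top regions of replicates 1, 2 and 3. In windows of 25 bp each side it was at 0.769% of the summits themselves but at 2.44% of points 100 bp to the left and 3.46% of points 100 bp to the right, falling to 0.513% at 200 bp to the right. It is among the letters of the Gr89a sequence above. A match of letters is no proof of binding.

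**Figure D5:**
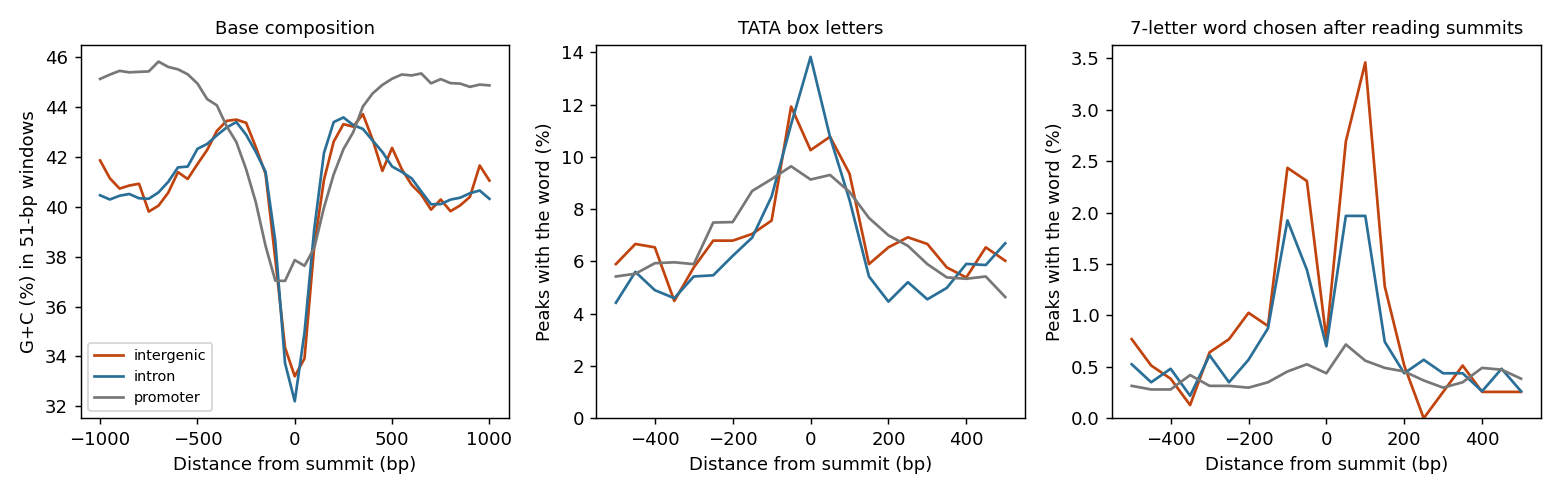
Percent G and C (left), share of peaks with the letters TATAAA (middle) and with the 7-letter word chosen after the summits were read (right; y axes, %) in windows of 25 bp each side against distance from the summit (x axes, bp), for intergenic, intron and promoter peaks. Intergenic G and C falls to 33.2% at the summit, and the 7-letter word is highest at about 100 bp on both sides.

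The limit of 500 bp cut through a continuous range. There were 59 intergenic peaks at 501 to 600 bp from a TSS and 76 peaks outside genes at 401 to 500 bp. Just inside the rule, peaks near lncRNA:CR45354 (501 bp) and CG10479 (503 bp) had pooled signals of 244 and 676. Just outside it, peaks near CrebA and CG3348, both at 499 bp, had 568 and 374. Of the 780 peaks, 6 lay inside annotated transposable elements, as did 20 of all 8952.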

How the data were processed

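Region lists of 1 group of 3 biological replicates were used. Per the file notes, the authors called regions on each replicate and on all 3 together against 1 control alignment, not analysed here, and kept a reproducible set (irreproducible discovery rate, IDR). No source used here gives the aligner, the peak caller or the IDR cutoff. The deposited signal is the authors' score for each region and was used within a list only. The deposited −log10 q-value was not used, as most peaks share its maximum. Depth is unknown.

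The dm6 lists were placed on Ensembl release 115 (BDGP 6.54) with transposable elements left out, and sequence was read from the release 6 genome. Coordinates are 1-based. A peak matched a replicate region where they overlapped by 50% of the shorter one, taking the highest. Words were searched within 50 bp of the summit and of both points 300 bp away. Intervals are exact (Clopper-Pearson, 95%) and cover counting error only. The sole test was a two-sided exact sign-flip permutation over the replicates, which cannot go below 0.25. It gives 0.25 whenever all 3 replicates share a direction, whatever their spread, and it covers these samples only.

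Regions named were the 15 highest found in all 3 replicates, the 5 farthest from a TSS, the 5 on each side of 500 bp, up to 2 per gene list and the largest group; others given as examples were chosen after their values were seen. The members and lists were chosen with earlier results of these data known. The microRNA list was matched by symbol after the annotation was seen. CACTGAG and AGNTGGCG were picked after ranking 7- and 8-letter words by their share at the summit. The placement and matching steps were tested on simulated data. The tools were matplotlib 3.10.9, scipy 1.17.1, pandas 2.3.3, numpy 2.4.6 and Python 3.11.15.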

Additional observations from a re-analysis of the deposited data

How the results depend on the processing

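Most of 66 alternative values (62) kept their direction, or their size within the limits set. The intergenic count was 1270 with a TSS distance of 200 bp and 613 with 1000 bp, and 283 in the highest 4476 peaks by signal, a set smaller by construction. It was 984 when only protein-coding genes were placed. The share of flanking protein-coding genes with a promoter peak was 22.1% within 200 bp and 45.5% within 1000 bp of a TSS, as the limit itself admits fewer or more peaks.

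With a replicate left out, the set was made of top regions of one remaining replicate with an overlapping top region in the last, 7509 to 7771 in number. The intergenic count was then 612 to 637 and the peaks found in the top regions of the remaining replicates 606 to 612. The ratio of intergenic to promoter signal ranged from 0.657 to 0.708, that to intron signal from 0.930 to 0.943, and that of divergent to convergent density from 1.54 to 1.64. The density ratio was 1.54 with protein-coding genes only and 1.37 with a TSS distance of 1000 bp. The values by distance bin and without long gaps, and those with the added words, were chosen after seeing the data. No paired analysis was possible because there is 1 group. The number of words higher at the summit was 11 to 15 in all settings. Without read counts, a gap with no peak cannot be told from one too shallow to show it.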
